A study of Mus musculus with 4 samples.

Results

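Cyrano is a long noncoding RNA whose gene the count files list as 1700020I14Rik, and it is described here with the 4 protein-coding genes that follow it on the same stretch of mouse chromosome 2: Oip5, Nusap1, Ndufaf1 and Rtf1. The 5 genes were taken by name from the 23366 gene symbols in the files, and all 5 had a row in each library and enough reads to be tested. The libraries came from polyadenylated RNA of the R1 line of mouse embryonic stem cells (129X1 x 129S1), kept on gelatin in medium with serum, serum replacement and LIF. There were 2 control libraries, from cells transfected with a non-targeting hairpin, and 2 knockdown libraries, from cells transfected with a hairpin against Cyrano. All 4 carried the same vector backbone, with mCherry and puromycin markers behind the Ef1a promoter, and were enriched for transfected cells with puromycin or by sorting. The labels do not say which way served which library, nor give the hairpin's sequence. The comparison asked how the level of the noncoding RNA stood against that of its neighbours once the hairpin was present.

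Cyrano is among the few long noncoding RNAs conserved across vertebrates, and it is best known for a long stretch that pairs with the microRNA miR-7. Extensive pairing of this kind is known to trigger the decay of the microRNA, a reversal of the usual case in which the microRNA represses its target. Hairpin RNAs act on the mature transcript, so that a hairpin against Cyrano lowers the RNA while the gene and its promoter stay in place. Of the neighbours, Oip5 encodes a subunit of the Mis18 complex, which prepares centromeres for new CENP-A, and Nusap1 encodes a microtubule-bundling protein of the mitotic spindle. Ndufaf1 encodes an assembly factor of mitochondrial complex I, and Rtf1 encodes a transcription elongation factor that works with the PAF1 complex and promotes ubiquitination of histone H2B.

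The microRNA and its site are shown because they are the part of Cyrano with a known partner. The mature sequences are those of RefSeq (GRCm38.p6), and their shared seed, bases 2 to 8, is in capitals. The Cyrano site is from the longer of the 2 Cyrano transcripts in GENCODE M21, with the bases that can pair with miR-7b in capitals.
mmu-miR-7a-5p: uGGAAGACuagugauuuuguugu
mmu-miR-7b-5p: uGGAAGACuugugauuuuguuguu
Cyrano site: AACAACAAAATCACcaatGTCTTCCA

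The site spans bases 2934 to 2959 of the 8300-base transcript. Bases 1 to 8 and 11 to 24 of miR-7b found a complementary base there, and only bases 9 and 10 of the microRNA and 4 bases of Cyrano were left unpaired between both stretches. With miR-7a, which is 1 base shorter, the far stretch was 13 bases long. The longer transcript held 6 matches to either 7-base seed site, GTCTTCC or TCTTCCA, or 0.723 per kb. The longest transcripts of all matched genes held 0.218 per kb, and 45.2% of them had at least 1 match. Oip5, Nusap1 and Rtf1 held 1 match each, or 0.562, 0.284 and 0.214 per kb. Ndufaf1 held 2, or 1.35 per kb, more than the longer Cyrano transcript. Each neighbour thus held a match, so that a lone 7-base match did not set Cyrano apart from them. The long site did not occur in the shorter Cyrano transcript. That transcript has 1381 bases and 2 seed matches, or 1.45 per kb, slightly more than Ndufaf1.

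Which part of Cyrano the counts cover bears on its level. The Cyrano gene in RefSeq ends at the last base of the shorter transcript, and the one in GENCODE runs 6756 bases further, over the miR-7 site. The labels do not name the annotation behind the counts, so the reads below cannot be placed before or after the site. Both annotations are on GRCm38, whereas the submitters' processing notes name mm9. They serve here for order, distance, length, shared exon bases and sequence, and no read was placed by their coordinates.

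The start of the transcription unit is printed because the hairpin acts on the RNA and leaves the promoter as it is. The window at chr2:119594046-119594345 (GRCm38.p6, plus strand, RefSeq) runs from 250 bases before the Cyrano start to 50 after it, with matches to CCAAT and to the GC box GGGCGG, read on both strands, in capitals.
Cyrano promoter: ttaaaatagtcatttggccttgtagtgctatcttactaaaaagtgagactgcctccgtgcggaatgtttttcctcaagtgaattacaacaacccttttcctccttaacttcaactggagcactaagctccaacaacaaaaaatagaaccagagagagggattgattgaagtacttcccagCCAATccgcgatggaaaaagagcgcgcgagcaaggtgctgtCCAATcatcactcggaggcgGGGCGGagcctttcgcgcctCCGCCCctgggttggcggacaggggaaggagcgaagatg

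The Cyrano window held 2 matches to CCAAT and 2 to GGGCGG, and none to TATAAA. The same 300 bases around the Oip5 start held 4, 1 and 0, those of Nusap1 held none of the 3, those of Ndufaf1 held 1, 1 and 0, and those of Rtf1 held 0, 5 and 0. In the Cyrano window no match overlaps another. Of all 32851 RefSeq promoter windows, 37.4% held CCAAT, 35.7% held GGGCGG and 13.6% held TATAAA on either strand, so these matches describe the windows and mark no site.

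Cyrano runs towards Oip5, which lies on the opposite strand, and its longer transcript ends 2009 bases before the 3′ end of Oip5. The 2 genes share no exon bases in GENCODE M21. Oip5 and Nusap1 start head to head, 24.2 and 24 kb from the Cyrano start, and share 172 exon bases. Ndufaf1 and Rtf1 start 68.5 and 80.8 kb away. On the other side, Chp1 ends 7269 bases before the Cyrano start. The labels describe strand-specific libraries but no strand setting for the counting. Reads in the stretch shared by Oip5 and Nusap1 could have been dropped as ambiguous or, without strand, could not be told apart.

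The control libraries held 16854403 and 19138196 gene counts and the knockdown libraries 22321102 and 20761783, and Rn45s, a ribosomal RNA precursor, took 17.5% and 15.9% against 12.3% and 11.0% of them. All 8 embryonic stem cell markers checked were present, with summed levels of 4412 and 4620 CPM (read counts scaled to a common depth, on library sizes scaled by the TMM method) in the controls and 4287 and 4115 CPM in the knockdown libraries. Of 6 primitive endoderm markers all were detected, with summed levels of 98.0 and 116.4 CPM against 157.6 and 194.5 CPM. All 6 had a log2 fold change above 0 and 4 an unadjusted p under 0.05 by edgeR, where 6.18% of all tested genes were higher at that threshold. Of these markers edgeR called none, whereas DESeq2 called Gata4 and Pdgfra higher and the stem cell marker Nanog lower. Over the 9872 genes with an adjusted p, DESeq2 called 0.729% higher and 0.648% lower. With an offset for length and GC, edgeR also called Nanog (-0.88, adjusted p = 0.036). The 8 stem cell markers had 4 log2 fold changes above 0 and 4 below by edgeR (2 and 6 with that offset). At an unadjusted p under 0.05 without the offset, 1 was higher and 2 were lower. Both knockdown libraries lay above both controls in 2 of the 8 and below them in 4, beside 22.3% and 21.3% of all tested genes. Of 6 fibroblast markers, Col3a1 and Postn were at 0 in every library, and the sums were 43.3 and 26.2 against 50.5 and 23.5 CPM, most of it Thy1 (38.0 and 21.6 against 48.0 and 20.4 CPM). Col1a1 at -0.94 ± 0.55 and Fbln2 at -0.82 ± 0.51 on the log2 scale lay below both controls in both knockdown libraries and were not called. The part of these differences in the values below was not tested.

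Both knockdown libraries held less Cyrano than either control, and none of its 4 neighbours was called. Cyrano had 407 and 286 reads in control libraries 1 and 2, which is 24.8 and 15.1 CPM, and 89 and 68 reads in knockdown libraries 1 and 2, which is 3.99 and 3.16 CPM. The groups did not overlap, although the controls lay 1.63-fold apart. The knockdown libraries held 20% and 15.8% of the control mean. The log2 fold change was -2.48 ± 0.30 (SE, n = 2 each; 95% interval -3.13 to -1.82), and edgeR's quasi-likelihood test over 13199 genes gave an adjusted p of 0.0070. At an adjusted p under 0.05, 0.0455% of tested genes were lower and 0.0379% were higher. Fewer cells with the RNA and less of it per cell cannot be told apart in bulk samples. The call was lost with limma-voom (adjusted p = 0.051), without control library 1 (-2.08, adjusted p = 0.12) and without control library 2 (-2.79, adjusted p = 0.057). The submitters' design text names biological replicates without saying how cultures were separated, so these p-values cover only how these libraries vary, which may be technical.

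Oip5, the closest neighbour on the side to which Cyrano is transcribed, had 352 and 460 control reads against 369 and 492 after knockdown. On the CPM scale these were 21.4 and 24.4 against 16.5 and 22.9. Knockdown library 1 was the lowest and control library 2 the highest, and the groups overlapped. The log2 fold change was -0.22 ± 0.22 (SE, n = 2 each), with a 95% interval of -0.70 to 0.26 and an edgeR adjusted p of 0.745. A fall as large as that of Cyrano lies outside this interval, and a change of up to about the size of its lower bound does not.

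Nusap1 had the lowest unadjusted p of the neighbours in the edgeR fit without an offset. Its reads numbered 512 and 730 in the controls against 1041 and 1003 after knockdown, or 31.1 and 38.7 CPM against 46.6 and 46.6 CPM. Both knockdown libraries lay above both controls, a pattern seen in 22.3% of tested genes. The log2 fold change was 0.42 ± 0.18 (SE, n = 2 each; 95% interval 0.033 to 0.80), with an unadjusted p of 0.036 and an adjusted p of 0.38 by edgeR, so Nusap1 was not called. An unadjusted p under 0.05 with a higher level was found in 6.18% of tested genes. With an offset for length and GC, edgeR gave Nusap1 a log2 fold change of 0.30 and an unadjusted p of 0.116. Oip5 and Ndufaf1 then had lower unadjusted p values by edgeR, 0.0687 and 0.0955, so the order of the neighbours depended on the fit.

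For Ndufaf1 there were 270 and 210 control reads against 227 and 267 after knockdown. These were 16.4 and 11.1 against 10.2 and 12.4 CPM, so that control library 1 stood alone above the other 3. Its log2 fold change was -0.29 ± 0.26 (SE, n = 2 each; 95% interval -0.86 to 0.29; edgeR adjusted p = 0.72), and it was 0.02 without control library 1. Rtf1, the most abundant of the 5, had 1157 and 1198 control reads against 1486 and 1282 after knockdown. On the CPM scale Rtf1 had 70.4 and 63.4 against 66.6 and 59.6, again with overlap. Its log2 fold change of -0.09 ± 0.16 (SE, n = 2 each; 95% interval -0.42 to 0.25; edgeR adjusted p = 0.88) was the nearest to 0 of the 5.

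**Figure D1:**
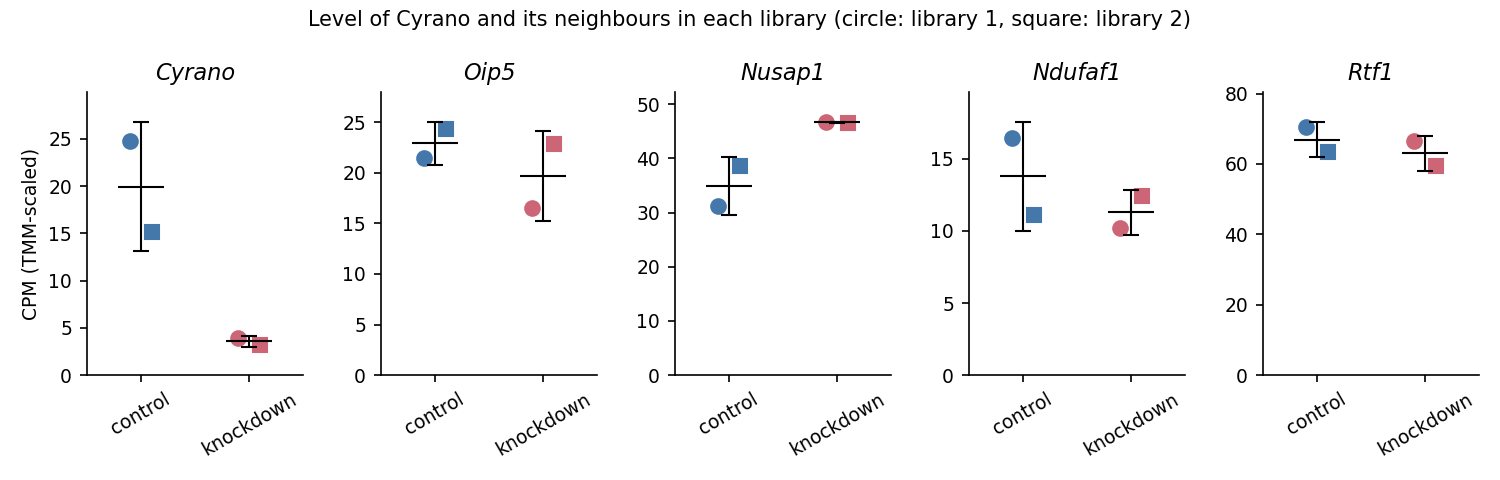
Level of each gene in CPM (vertical axes from 0, TMM-scaled) in the 2 control (blue) and 2 knockdown (red) libraries, circles for library 1 and squares for library 2, with the group mean and SD as black bars. Cyrano falls from 24.8 and 15.1 to 3.99 and 3.16 CPM, whereas the groups overlap for Oip5, Ndufaf1 and Rtf1.

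Of the 4 neighbours edgeR, DESeq2 and limma-voom called 0. By edgeR 1 of them, Nusap1, had an unadjusted p under 0.05, but not with the length and GC offset (0.116). In the controls, the level per kb of the longest transcript ran from 14.3 ± 1.05 CPM per kb for Rtf1 through 12.9 ± 1.17 for Oip5, 9.90 ± 1.51 for Nusap1 and 9.32 ± 2.54 for Ndufaf1 to 2.40 ± 0.819 for Cyrano (mean ± SD, n = 2 each). The libraries of Rtf1 and Oip5 overlapped, as did those of Nusap1 and Ndufaf1, whereas Oip5 lay above Nusap1, and Ndufaf1 above Cyrano, in both controls. After knockdown the order was Rtf1 at 13.5 ± 1.06, Nusap1 at 13.2 ± 0.0074, Oip5 at 11.1 ± 2.52, Ndufaf1 at 7.64 ± 1.07 and Cyrano at 0.430 ± 0.071 CPM per kb. There Rtf1 overlapped both Nusap1 and Oip5, Nusap1 lay above Oip5 in both libraries, and Ndufaf1 and Cyrano lay below. The place of Cyrano depends on its length: over the 1381 bases of the shorter transcript its level was 14.4 ± 4.92 CPM per kb in the controls and 2.59 ± 0.424 after knockdown, which overlapped Rtf1, Oip5 and Ndufaf1 in the controls and lay below all 4 neighbours afterwards.

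A ratio of reads within a library does not depend on how the libraries are scaled to each other. Control libraries 1 and 2 held 115.6 and 62.2 Cyrano reads per 100 Oip5 reads, and knockdown libraries 1 and 2 held 24.1 and 13.8. Per 100 Nusap1 reads there were 79.5 and 39.2 Cyrano reads in the controls against 8.55 and 6.78. Per 100 Ndufaf1 reads there were 150.7 and 136.2 against 39.2 and 25.5. Per 100 Rtf1 reads there were 35.2 and 23.9 against 5.99 and 5.30. With each of the 4 genes as the base, both knockdown libraries lay below both controls.

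Against the geometric mean of the 4 neighbours, the log2 ratio of Cyrano stood at -0.26 and -0.91 in the controls against -2.75 and -3.24 after knockdown. The group means were -0.59 ± 0.46 and -3.00 ± 0.34 (SD, n = 2 each), a difference of -2.41 on the log2 scale, which left 18.8% of the control ratio. By exact permutation, two-sided, p was 0.333, the lowest possible for 2 against 2 libraries, and 0.333 after Benjamini-Hochberg adjustment over the 5 ratios of Cyrano. With a single neighbour as the base, the difference ran from -2.18 for Ndufaf1 to -2.87 for Nusap1.

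**Figure D2:**
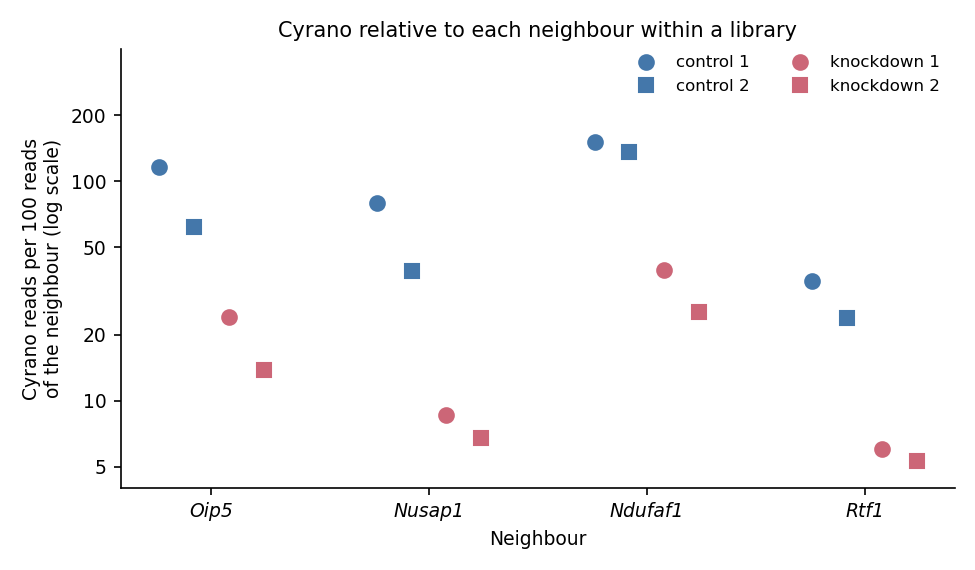
Cyrano reads per 100 reads of each neighbour in the same library (vertical log axis), with 1 point for each control (blue) and knockdown (red) library, circles for library 1 and squares for library 2. In each of the 4 columns both red points lie below both blue points, from 5.30 to 39.2 after knockdown against 23.9 to 150.7 in the controls.

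The neighbours were also set against each other. For Oip5 and Nusap1, which start head to head, the log2 ratio of Oip5 to Nusap1 reads stood at -0.54 and -0.67 in the controls against -1.50 and -1.03 after knockdown. The groups did not overlap, and the difference of -0.66 had an exact two-sided permutation p of 0.333 (0.667 after Benjamini-Hochberg adjustment over 6 pairs of neighbours). Nusap1 also stood higher against Ndufaf1 (difference of 0.69) and against Rtf1 (0.51), in both cases without overlap between groups and with the same exact permutation p of 0.333 (adjusted 0.667). All the pairs without overlap hold Nusap1, so they are not separate observations. Among single genes tested, both knockdown libraries lay below both controls in 21.3% and above them in 22.3%. The share over other pairs of genes was not computed. In the 3 pairs without Nusap1 the groups overlapped, with differences of 0.03 for Oip5 to Ndufaf1, -0.15 for Oip5 to Rtf1 and -0.18 for Ndufaf1 to Rtf1. When the fit took an offset for length and GC of the transcripts, the log2 fold change was -0.40 for Oip5, 0.30 for Nusap1 and -0.45 for Ndufaf1, so that these 3 kept their directions and none was called by edgeR (adjusted p from 0.46 to 0.54).

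The wider segment was described through the 10 nearest gene symbols on each side of Cyrano, its 4 neighbours left out. Of these 20 genes 17 had enough reads to be tested, and Dll4 and Gm14207 had 0 reads in every library, which allows up to 0.134 to 0.183 CPM at 3 reads per library (counting error only). The tested genes had 7 log2 fold changes above 0 and 10 below, with a median of -0.11 beside -0.0016 over all tested genes. Both knockdown libraries lay below both controls in 6 of the 17 and above them in 1, patterns that 21.3% and 22.3% of all tested genes showed. Neither edgeR nor limma-voom called any of the 17. By edgeR, 3 had an unadjusted p under 0.05, all lower, where 5.43% of all tested genes did. DESeq2 called 1 lower, Ppp1r14d, where it called 0.648% of the 9872 genes with an adjusted p lower and 0.729% higher.

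Chp1, the direct neighbour upstream, encodes a calcineurin-like calcium-binding protein and had 65.8 and 66.4 control CPM against 62.3 and 65.6 CPM after knockdown. Its log2 fold change of -0.05 ± 0.15 (SE, n = 2 each; edgeR adjusted p = 0.94) was close to 0, although the groups did not overlap. Itpka, an inositol trisphosphate kinase gene and the first symbol beyond Rtf1, had 23.6 and 27.2 against 18.5 and 15.1 CPM. Its log2 fold change was -0.60 ± 0.21 (edgeR adjusted p = 0.30), below both controls in both knockdown libraries and not called.

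The lowest p in the segment belonged to its most distant gene on the upstream side. Ppp1r14d, which encodes an inhibitor of protein phosphatase 1, had 133 and 241 control reads against 74 and 56 after knockdown, or 8.09 and 12.8 against 3.32 and 2.60 CPM. Its log2 fold change was -1.82 ± 0.34 (SE, n = 2 each), with an adjusted p of 0.071 by edgeR and 0.0011 by DESeq2. Pla2g4e, a cytosolic phospholipase gene and the most distant on the other side, had 7.18 and 3.81 against 2.96 and 1.63 CPM. Its log2 fold change stood at -1.25 ± 0.44 (SE; edgeR adjusted p = 0.29). The other 14 tested genes of the segment had log2 fold changes from -0.43 for Mga to 0.50 for Chac1, and Ltk, with 6 to 13 reads, was too low to be tested.

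**Figure D3:**
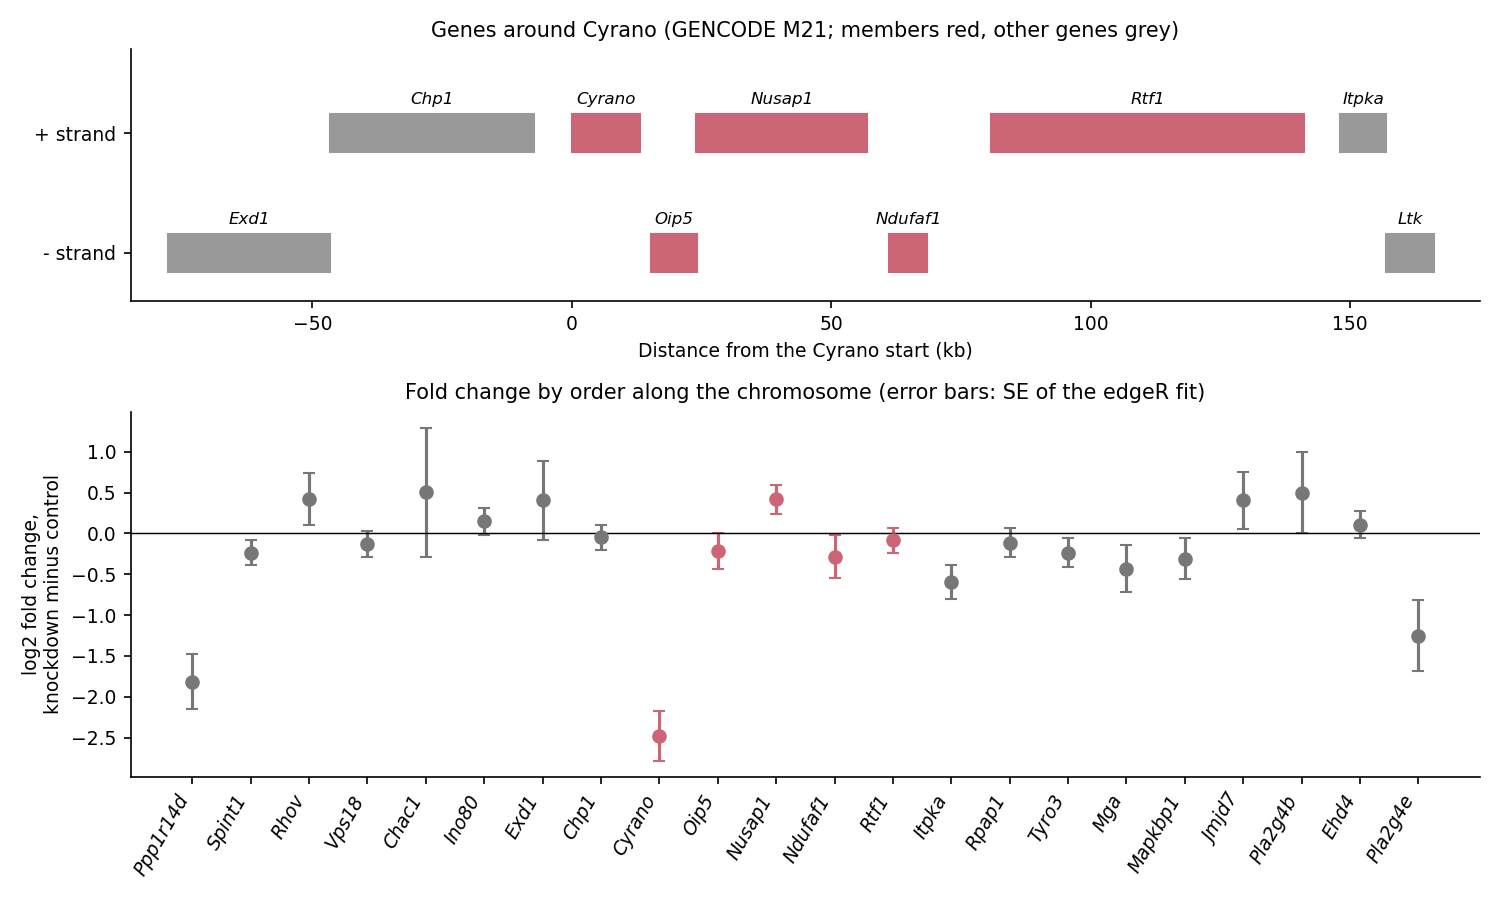
Upper panel, gene bodies by strand against distance from the Cyrano start in kb, with the 5 genes of the locus in red and others in grey. Lower panel, log2 fold change (knockdown minus control) with its SE for the 5 genes and the 17 tested genes around them in chromosome order, where Cyrano at -2.48 stands lowest, followed by Ppp1r14d at -1.82 and Pla2g4e at -1.25.

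Each gene of the locus was then set beside the genes whose products it is known to work with. For Cyrano this list held the miR-7 hairpin genes, Hnrnpk, whose transcript hosts one of them, the RNA-binding protein gene Elavl1, and the ubiquitin ligase of Zswim8 that acts in microRNA decay. Mir7-1, Mir7-2 and Mir7b had 0 reads in every library, which allows up to 0.134 to 0.183 CPM. Libraries of this kind do not capture mature microRNAs, so miR-7 itself was not measured. The other 8 genes were tested and none was called by edgeR, DESeq2 or limma-voom. Of them 7 had a log2 fold change above 0, and the median was 0.17. The lowest p value belonged to Ube2m, a NEDD8-conjugating enzyme gene, at 0.34 ± 0.15 (SE; edgeR adjusted p = 0.39). Its unadjusted p of 0.038 by edgeR was the only 1 of the 8 under 0.05, beside 6.18% of all tested genes higher and 5.43% lower. The elongin C gene Tceb1 followed at 0.39 ± 0.19 and Hnrnpk at 0.28 ± 0.15 (SE; edgeR adjusted p = 0.44 and 0.50). With the length and GC offset Ube2m stood at 0.27, Tceb1 at 0.116 and Hnrnpk at 0.159, 0 of the 8 had an unadjusted p under 0.05 and the median was 0.14. Zswim8, the substrate receptor, had 93.0 ± 2.06 CPM in the controls and 95.1 ± 0.810 after knockdown (SD, n = 2 each).

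Around Oip5, the 10 genes of centromere licensing had a median log2 fold change of 0.18, with 9 above 0, and 0.094 with the length and GC offset. In 6 both knockdown libraries lay above both controls, a pattern of 22.3% of all tested genes. No tool of the 3 made a call. Of all tested genes 6.18% were higher and 5.43% lower at an unadjusted p under 0.05 by edgeR, and here 1 gene passed. It was Cenpa, which encodes the centromeric histone, with 180.6 ± 31.2 CPM in the controls and 246.4 ± 33.6 after knockdown (SD, n = 2 each) and a log2 fold change of 0.45 ± 0.16 (SE; edgeR adjusted p = 0.32). Mis18a, a partner of Oip5 in its own complex, stood at 0.12 ± 0.20, within its error of 0. Cenpl, of the inner kinetochore, had 0.46 ± 0.25, and the histone chaperone gene Rbbp7 had 0.26 ± 0.15. With the length and GC offset Cenpa stood at 0.48, Mis18a at 0.06, Cenpl at 0.37 and Rbbp7 at 0.125.

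The 14 spindle assembly genes beside Nusap1 did not show its shift. Their log2 fold changes ran from -0.25 to 0.20 with a median of -0.03, 6 above 0 and 8 below, and none reached the 0.42 of Nusap1. The edgeR fit left 0 with an unadjusted p under 0.05, and no tool of the 3 called any. The lowest p values were those of the spindle pole gene Numa1 at -0.25 ± 0.14, Ckap2 at 0.20 ± 0.15 and the kinesin gene Kif15 at -0.19 ± 0.16 (SE; edgeR adjusted p from 0.50 to 0.69). With the length and GC offset Numa1 stood at -0.05 and Ckap2 at 0.05, and Kif15 at -0.22. The mitotic kinase gene Aurka went from 132.7 ± 14.8 to 121.3 ± 1.61 CPM, and Tpx2, which activates it at the spindle, from 134.4 ± 12.5 to 134.9 ± 7.95 CPM (SD, n = 2 each). That Nusap1 differs from these genes was not tested.

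Beside Ndufaf1 stood the complex I assembly genes. Of 16 genes 15 were tested, all but Coa1, with a median log2 fold change of 0.25 and 10 above 0. The 1 call was Ndufaf2, higher by DESeq2, which called 0.729% of 9872 genes higher. There were 0 calls by edgeR and 0 by limma-voom. By edgeR 4 of 15 had an unadjusted p under 0.05, all higher, beside 6.18% of all tested genes. In 6 both knockdown libraries lay above both controls, beside 22.3% of all. In 1, Tmem186 at -0.27 ± 0.18 (SE), they lay below, beside 21.3% of all. Ndufaf2 had 28.5 ± 3.86 CPM in the controls and 47.0 ± 3.40 after knockdown, Ndufaf4 had 39.1 ± 2.39 and 61.4 ± 6.87, and Tmem126b had 13.4 ± 0.408 and 21.7 ± 2.94 (SD, n = 2 each). Their log2 fold changes were 0.72 ± 0.18, 0.65 ± 0.17 and 0.69 ± 0.22 (SE; edgeR adjusted p = 0.17, 0.17 and 0.24). Ndufaf1 itself, at -0.29, lay on the other side of 0. Tmem126b, Ecsit (-0.02 ± 0.16) and Acad9 (0.13 ± 0.17) are among the genes whose proteins form an assembly complex with Ndufaf1. In these libraries shorter transcripts had higher fold changes, with a median of 0.12 in the shortest 20% of genes and -0.14 in the longest 20%. The list has a median length of 2404 bases, near the 2446 of the second-shortest 20% of genes, whose median fold change was 0.047. With the offset for length and GC content its median was 0.15, and 3 members had an unadjusted p under 0.05.

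The 11 genes tested beside Rtf1, of the PAF1 complex, histone H2B ubiquitination and elongation, were spread around 0. Their median log2 fold change was 0.08, 6 were above 0 and 5 below, and edgeR, DESeq2 and limma-voom called none. Over all tested genes, 6.18% were higher and 5.43% lower at an unadjusted p under 0.05 by edgeR. The 1 such gene of the 11 was Ube2a, an H2B ubiquitin-conjugating enzyme gene, at 0.44 ± 0.15 (SE; edgeR adjusted p = 0.29). Ube2a went from 65.4 ± 2.12 to 88.9 ± 10.6 CPM (SD, n = 2 each). With the length and GC offset it stood at 0.21 and 0 of the 11 had an unadjusted p under 0.05. The elongation factor gene Supt6 had -0.31 ± 0.17 (-0.14 with the offset) and Wdr61, of the PAF1 complex, had 0.30 ± 0.17. Paf1 had 96.5 ± 4.29 CPM in the controls and 104.6 ± 0.272 after knockdown.

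**Figure D4:**
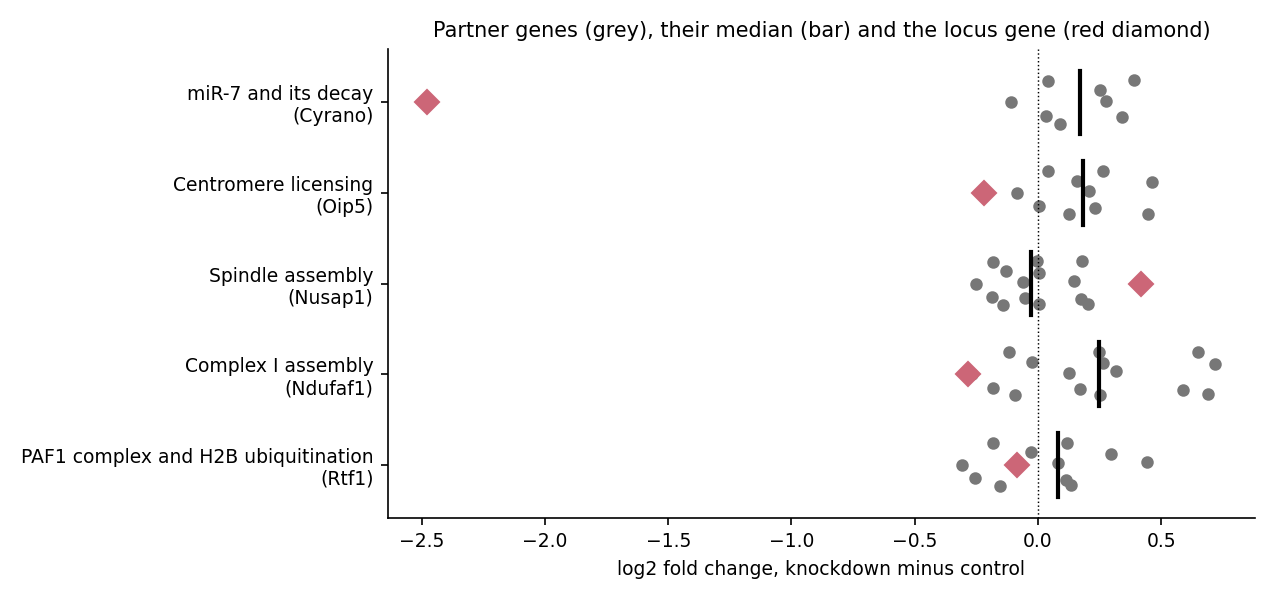
Log2 fold change (horizontal axis, knockdown minus control) of the tested partner genes of each locus gene, 1 grey point per gene with the median as a black bar, and of the locus gene itself as a red diamond. Medians lie between -0.03 and 0.25, Cyrano stands apart at -2.48, and Oip5 and Ndufaf1 lie below 0 while most of their partners lie above it.

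The genes whose pattern over the 4 libraries was most like that of each gene were found from the sum of absolute differences in log2 CPM, each gene centred on its own mean. For Cyrano these were Irs1 (distance 0.51), Fbxw10 (0.64), Birc7 (0.80), Tmem81 (0.85) and Hivep3 (1.06), all low, with means from 0.353 to 1.55 CPM. For Nusap1 they were Crtc3, Coa4, Cep89, Rps13 and Timm23, at distances of 0.0234 to 0.0716. For Oip5 they were Kif9, Tmem19, Zfp90, Ip6k1 and Ufd1l, for Ndufaf1 they were Gfpt1, Mctp2, Polq, C430002E04Rik and Ttc37, and for Rtf1 they were Ercc2, Dhx37, Btbd9, Kdm3b and Dok4. None of the 5 genes of the locus was among the 5 nearest of another. Of the 13198 other genes, 24.1% were nearer to Cyrano than Oip5 was and 88.4% were nearer than Nusap1. Seen from the other side, 99.5% of genes were nearer to Oip5 than Cyrano was, and 99.9% were nearer to Nusap1. Oip5, which shares a start region with Nusap1, had 68.1% of genes nearer to it than Nusap1. These ranks describe 4 libraries and carry no test.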

How the data were processed

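The authors deposited 1 table of raw read counts per gene symbol for each of 4 libraries, made with TopHat, HTSeq, SAMtools and bedtools on mm9, per the submitters' processing notes; versions, annotation and strand use in counting are not known from those notes or the labels. Groups and replicate numbers came from the sample titles. The 5 closing tallies of each file name no gene and were left out of library sizes. Reads that fell between overlapping genes were 0.459% and 0.513% of all tallied reads in the controls and 0.568% and 0.6% after knockdown, and reads without a unique alignment were 32.8%, 30.2%, 28.7% and 26.1%.

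Counts were compared with edgeR 4.0.16 in R 4.3.3: filterByExpr (minimum count 10), TMM factors (0.976, 0.987, 1.00 and 1.04), glmQLFit with robust estimation and glmQLFTest on the group alone, two-sided, with Benjamini-Hochberg adjustment over 13199 genes and a threshold of 0.05. Each standard error is |log2 fold change| divided by the root of its F statistic. The common biological coefficient of variation was 17.4%. DESeq2 1.42.0 and limma 3.58.1 (voom) were alternatives, as were other factors, filters, an offset for length and GC content (known for 99.3% of tested genes) and leaving out each library. The fits were tested on simulated data. Ratios used raw counts and the exact permutation test. Replicates differed beyond sampling noise (chi-square over degrees of freedom of 25.4 between controls and 20.5 between knockdown libraries).

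The members, lists and tests were chosen with earlier results of these data known. The genes named were the 5 of the locus, the adjoining genes and the 3 lowest p values in the segment, any called and up to 3 lowest p values in each list, and the 5 nearest patterns per gene (log2 CPM with a prior count of 2). Mga, Chac1, Thy1, Col1a1, Fbln2, Gata4, Pdgfra, Nanog, Zswim8, Mis18a, Aurka, Tpx2, Ecsit, Acad9, Tmem186, Paf1 and the segment genes at the ends of ranges were named after their values were seen. Lengths came from GENCODE M21, which 98.3% of symbols matched.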

Additional observations from a re-analysis of the deposited data

Results flagged for a closer look

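Reads that fell between overlapping genes enter no gene count, so no comparison above uses them, and they were more frequent after knockdown. As a share of gene reads and ambiguous reads together, which leaves out reads without a unique alignment, they made up 0.77% and 0.81% in control libraries 1 and 2 (mean 0.79%) and 0.88% and 0.889% in knockdown libraries 1 and 2 (mean 0.885%). By exact permutation, two-sided, p was 0.333, which is also the lowest possible for 2 against 2 libraries. Oip5 and Nusap1 share 172 exon bases in GENCODE M21. How many of these reads came from them is not recorded in the tallies and was not tested.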

How the results depend on the processing

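Cyrano was lower under all 15 alternatives and was no longer called under 3: limma-voom (-2.42), without control replicate 1 (-2.08) and without control replicate 2 (-2.79). None of the alternatives called Oip5, Nusap1, Ndufaf1 or Rtf1. Over the fits that left out 1 library, the log2 fold change ran from -2.79 to -2.08 for Cyrano, from -0.46 to -0.0093 for Oip5, from 0.27 to 0.58 for Nusap1, from -0.54 to 0.020 for Ndufaf1 and from -0.18 to -0.0029 for Rtf1. Ndufaf1 reversed without control replicate 1 (0.020), and Oip5 came nearest to 0 without knockdown replicate 1.

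The number of genes called, 5 higher and 6 lower, came to 174 and 158 when no filter was used and to 2 and 4 under the CPM filter. Under other scalings it was 32 and 18 (library size only), 10 and 16 (upper quartile) and 2 and 4 (RLE). DESeq2 gave 72 and 64, limma-voom 1 and 2, edgeR without robust estimation 1 and 3, and the length and GC offset 3 and 4. Over fits without 1 library it ran from 0 to 60 higher and from 0 to 131 lower. The cause was not tested.

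With a replicate block there were 504 higher and 451 lower, with 1 residual degree of freedom. Cyrano had -2.45 and Nusap1 0.42 (edgeR adjusted p = 0.09). Same-numbered libraries deviated together with a correlation of 0.24 across genes, but no label pairs them. For the log2 ratio of Cyrano to its neighbours, the mean difference within numbers was -2.41 (-2.49 and -2.32), and over 11 alternatives the difference stayed between -2.87 and -2.08. With 2 libraries a group, the counts behind Cyrano after knockdown (68 and 89 reads) limit its precision.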
